A study of Homo sapiens with 2 samples.

Results

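Retained introns for which the tables of AC16 cells name annotated transcripts only on the side that removes the intron are described here. Intron retention was listed in tables that pair a form of the transcript that keeps an intron with a form that removes it, and name the transcripts of each form. The introns were chosen by those names: the spliced form names at least 1 annotated Ensembl transcript and the retained form names none. The retained form of these events thus rests on isoforms of the library alone. They made up 2933 of 12224 intron retention events in DCRT-KO cells (24%, exact 95% interval 23.2 to 24.8) and 2953 of 12401 in WT cells (23.8%, 23.1 to 24.6). These are 2912 distinct introns of 1710 genes in DCRT-KO and 2939 of 1757 genes in WT. Together they are 4881 introns of 2541 genes. For 36.6% of the distinct introns in DCRT-KO and 34.9% in WT, another GENCODE v29 transcript of the gene holds the intron inside an exon.

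AC16 cells are an established human line that the labels give as cardiomyocytes of the heart. The DCRT-KO library came from AC16 cells in which CRISPR-Cas9 was used to knock out the long non-coding RNA DCRT, and the WT library from unedited AC16 cells. Each genotype had 1 library, so no difference between them has a replicate check, no test was made, and every interval covers counting error only and treats introns as independent. The series' design text describes PacBio sequencing of full-length isoforms, while the protocol labels describe Illumina libraries. The labels do not say whether the knockout line is 1 clone. DCRT had 0 events of any type, so the knockout label was not checked. Of 19 markers of contracting heart muscle, 3 had an event of any type, which were ATP2A2, MYL3 and NPPB, while MYH6, MYH7, TNNT2, ACTC1 and RYR2 were at 0 in both libraries. The tables name isoforms and give no read counts, so the depth is unknown, and a number of isoforms is not a number of transcripts. In a bulk library, fewer cells of a kind and less RNA per cell cannot be told apart.

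Introns are removed by the spliceosome, which recognises a donor site at the 5′ end, usually GT, and an acceptor site at the 3′ end, usually AG. Short introns can be recognised across the intron, by pairing of its own ends. A kept intron in the coding part often brings a stop codon into frame, and such RNAs can stay in the nucleus or be destroyed by nonsense-mediated decay in the cytoplasm. Small nucleolar RNAs (snoRNAs), which guide the chemical modification of ribosomal RNA, are encoded within introns of host genes, many of them genes of ribosomal proteins and translation factors, and are released after splicing.

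The sequences printed here are those of some of the introns with the highest numbers of isoforms that kept them, to show their length, ends and stop codons, and of NOP2 intron 7 as an example of rare intron ends. All were chosen after their values were seen. The sequences are those of GENCODE v29 transcripts that hold the intron inside an exon, on GRCh38, written 5′ to 3′ on the strand of the gene. EIF4A2 intron 8 lies at chr3:186787265-186787494 (plus strand), and its capitals mark SNORA63, a snoRNA gene that fills bases 36 to 167 of the intron's 230.
EIF4A2 intron 8: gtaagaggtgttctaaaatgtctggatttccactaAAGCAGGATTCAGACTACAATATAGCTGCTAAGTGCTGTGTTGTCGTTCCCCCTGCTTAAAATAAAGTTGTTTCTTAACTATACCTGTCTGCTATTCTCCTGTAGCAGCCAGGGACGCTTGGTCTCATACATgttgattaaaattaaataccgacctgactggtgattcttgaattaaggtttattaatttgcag
In the next 4 the capitals mark the first and last 2 bases of the intron. They are RHOT2 intron 10 (chr16:671001-671082, plus strand), HGS intron 17 (chr17:81696748-81696823, plus strand), COL1A1 intron 24 (chr17:50194042-50194129, minus strand) and COL1A1 intron 47 (chr17:50186923-50187014, minus strand). They are 76 to 92 bases long, and none of the 4 has a stop codon in the frame of the exon before it. None of the 4 lengths is a multiple of 3, so keeping the intron would shift the frame after it.
RHOT2 intron 10: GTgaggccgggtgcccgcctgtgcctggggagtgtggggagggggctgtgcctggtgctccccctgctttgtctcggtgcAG
HGS intron 17: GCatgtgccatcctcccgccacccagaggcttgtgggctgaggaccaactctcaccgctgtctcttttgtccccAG
COL1A1 intron 24: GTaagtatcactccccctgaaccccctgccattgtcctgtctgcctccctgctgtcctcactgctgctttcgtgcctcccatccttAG
COL1A1 intron 47: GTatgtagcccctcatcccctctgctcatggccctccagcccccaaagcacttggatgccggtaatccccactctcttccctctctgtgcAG
In the last 3 the capitals mark the end bases and the first stop codon in frame. PSMD2 intron 4 (chr3:184301659-184301846, plus strand) and SGSM3 intron 19 (chr22:40409019-40409249, plus strand) reach a stop codon at base 2, inside the donor site itself. NOP2 intron 7 (chr12:6563515-6563613, minus strand) begins with AT, ends with AC and reaches its stop codon at base 75.
PSMD2 intron 4: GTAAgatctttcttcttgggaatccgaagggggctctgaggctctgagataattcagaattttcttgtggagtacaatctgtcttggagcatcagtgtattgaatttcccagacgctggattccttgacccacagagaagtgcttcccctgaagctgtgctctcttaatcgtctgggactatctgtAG
SGSM3 intron 19: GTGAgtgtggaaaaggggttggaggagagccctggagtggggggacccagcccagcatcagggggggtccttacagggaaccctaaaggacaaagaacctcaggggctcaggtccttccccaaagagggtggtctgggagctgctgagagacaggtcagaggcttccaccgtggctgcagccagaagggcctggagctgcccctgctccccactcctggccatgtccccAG
NOP2 intron 7: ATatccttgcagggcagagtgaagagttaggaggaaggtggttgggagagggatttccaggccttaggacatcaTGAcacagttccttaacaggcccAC

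Most of these introns were kept by a single isoform of their library. The retained form was carried by 1 library isoform in 2191 of 2933 DCRT-KO events (74.7%) and 2227 of 2953 WT events (75.4%). It was carried by at least 2 in 742 (25.3%, 23.7 to 26.9) and 726 (24.6%, 23.0 to 26.2), and by at least 5 in 68 and 69. The spliced form was named for annotated transcripts alone, with no library isoform, in 406 DCRT-KO events (13.8%) and 397 WT events (13.4%). Where the library held both forms, fewer isoforms kept the intron than removed it in 2146 of 2527 events in the DCRT-KO table (84.9%, 83.5 to 86.3) and in 2079 of 2556 in the WT table (81.3%, 79.8 to 82.8). Per intron, the median share of isoforms that kept it was 16.7% in DCRT-KO (quartiles 9.09 and 33.3) and 20% in WT (10 and 33.3).

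A minority of the introns were also listed as retained in the other library. This held for 1183 of 2933 events in the DCRT-KO table (40.3%, 38.6 to 42.1) and for 1211 of 2953 in the WT table (41.0%, 39.2 to 42.8). The share was larger where more isoforms kept the intron. In DCRT-KO it was 32% (30 to 34) for 2163 introns with 1 retained isoform, 57.1% (52.5 to 61.7) for 464 with 2 and 74.0% (68.5 to 79.0) for 285 with 3 or more. In WT it was 33.5% (31.6 to 35.5) for 2204 introns, 57.1% (52.6 to 61.6) for 476 and 72.6% (66.7 to 77.9) for 259. The intervals of the lowest and the middle class do not overlap in either library, nor do those of the middle and the highest class. The share listed in the other library was not computed for the other kinds of retention event. Whether the shares above are low or high for these libraries is therefore unknown.

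Where the other library did not list the intron as retained, it mostly listed the gene with other events. The gene had other retention events in the other library for 1113 of 2912 DCRT-KO introns (38.2%) and 1072 of 2939 WT introns (36.5%). It had only other event types there for 372 (12.8%) and 422 (14.4%). It had no event there for 259 (8.89%) and 246 (8.37%). Within a library, 247 DCRT-KO introns (8.48%) and 241 WT introns (8.20%) also stood in a retention event of another kind. For 21 and 7 of these, an annotated transcript carried the retained form there.

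The 970 introns that met the rule in both libraries were near balance between the genotypes. DCRT-KO had more isoforms that kept the intron in 257 of them, WT had more in 235, and the numbers were equal in 478. At least 2 isoforms kept the intron in both libraries in 224.

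**Figure D1:**
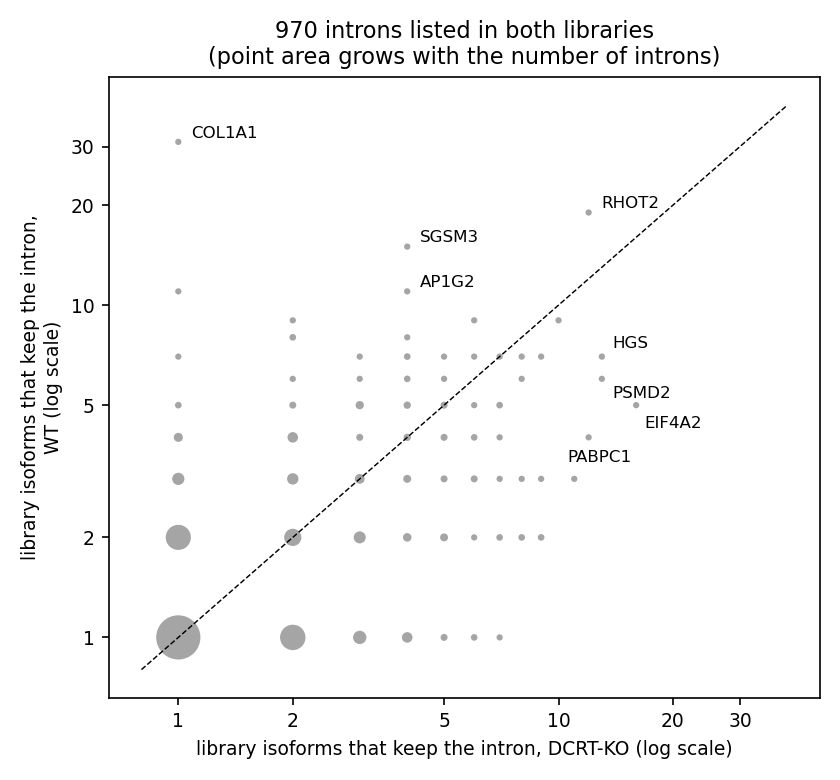
Library isoforms that keep the intron in DCRT-KO (horizontal axis) and WT (vertical axis), both log scales, for the 970 introns that met the rule in both libraries; point area grows with the number of introns and the dashed line marks equality. The largest point is at 1 isoform in each library, and the named points farthest from the line include COL1A1 intron 24 with 1 isoform in DCRT-KO and 31 in WT and EIF4A2 intron 8 with 16 and 5.

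The introns were shorter than the other introns of the same annotated transcripts. This comparison and those of the next paragraphs used 2867 DCRT-KO and 2890 WT introns found in a named v29 transcript. The other introns are the 17915 and 18285 introns of those transcripts that stood in no retention event of the same library. They were taken whether or not an isoform of the library covered them. Median length was 402 bases (quartiles 161.5 and 900) in DCRT-KO, against 959 (269 and 2539.5) for the other introns, and 406 (157 and 948) in WT, against 980 (285 and 2590). Introns over 2000 bases made up 5.72% (4.90 to 6.63) in DCRT-KO, against 31.0% (30.3 to 31.7) of the other introns, and 5.85% (5.02 to 6.77) in WT, against 31.3% (30.6 to 31.9). Introns of up to 100 bases made up 14.4% (13.1 to 15.7) in DCRT-KO, against 8.08% (7.68 to 8.49), and 15.3% (14.0 to 16.6) in WT, against 7.49% (7.11 to 7.88). The intron was shorter than the median of at least 3 other introns of its gene in 1879 of 2665 DCRT-KO cases (70.5%, 68.7 to 72.2) and in 1953 of 2732 WT cases (71.5%, 69.8 to 73.2). A kept intron has to lie whole inside an isoform, and the part of isoform length in these differences was not tested.

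Among the kinds of retention event, lengths also differed by annotation. By event, the median was 402 bases in DCRT-KO and 404 in WT for the introns described here. It was 285 and 278.5 where both forms were annotated, 95 and 94 where the retained form alone was, and 276 and 244 where neither was. The longest intron with only the spliced form annotated had 4286 bases in DCRT-KO and 5400 in WT, and the shortest had 56 and 66.

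**Figure D2:**
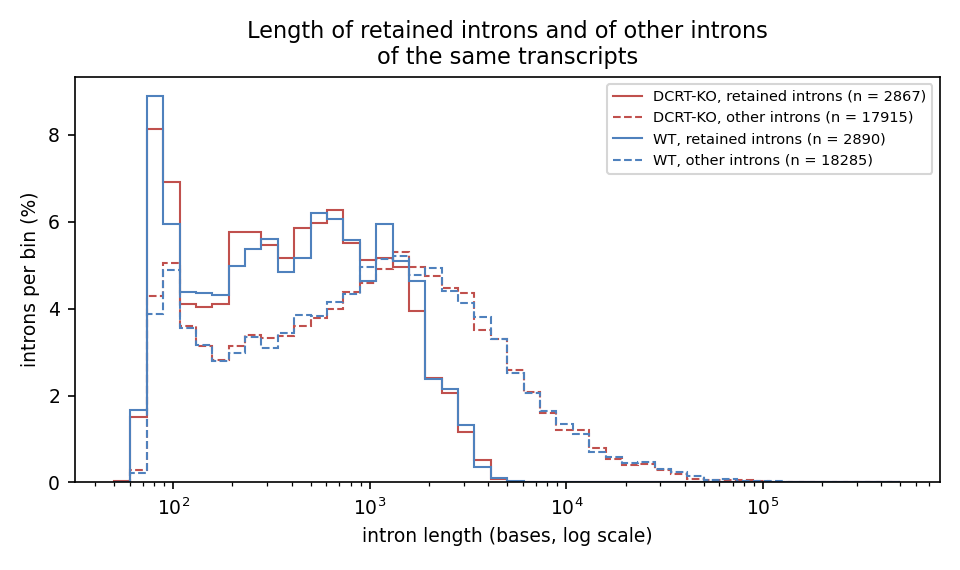
Share of introns (vertical axis) by length in bases (horizontal axis, log scale) for the retained introns with only splicing annotated (solid lines) and for other introns of the same transcripts (dashed lines), in DCRT-KO and WT. The retained introns lie to the left, with medians of 402 and 406 bases against 959 and 980. The other introns stood in no retention event of their library.

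The introns were rarely the first or the last of their transcript. Inner introns made up 2726 of 2867 in DCRT-KO (95.1%, 94.2 to 95.8), against 83.0% (82.4 to 83.5) of the other introns, and 2743 of 2890 in WT (94.9%, 94.0 to 95.7), against 83.0% (82.5 to 83.6). First introns made up 2.41% in DCRT-KO against 9.03%, and 2.53% in WT against 8.96%. Last introns made up 2.51% in DCRT-KO against 8%, and 2.56% in WT against 8.02%. Where both forms were annotated, first introns made up 9.47% of the 359 introns that could be placed in a transcript in DCRT-KO and 9.32% of 322 in WT, and last introns 13.4% and 16.1%. Along the transcript, 8.33% (7.32 to 9.43) of inner introns in DCRT-KO lay in the first 20% of the transcript from its 5′ end, against 15.8% (15.3 to 16.4) of inner other introns, and 7.62% (6.65 to 8.68) in WT, against 15.7% (15.1 to 16.3). The stretch from 60% to 80% held 27.5% (25.8 to 29.2) in DCRT-KO, against 22.7% (22.1 to 23.4), and 29.1% (27.4 to 30.8) in WT, against 22.7% (22.0 to 23.3). Introns within the coding part made up 93.8% in DCRT-KO, against 93.0% of the other introns, and 93.9% in WT, against 93.6%. Among inner introns the order was turned, with 95.2% (94.4 to 96.0) of retained introns in DCRT-KO against 97.1% (96.9 to 97.4) of the others, and 95.4% (94.6 to 96.2) in WT against 97.5% (97.2 to 97.8). A listed intron needs a library isoform that spans it, while the other introns count with or without one. The part of where isoforms start and end in the differences of place was not tested.

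The sites at their ends were used in other splicing events of the same library more often than those of other introns. Among inner introns, the donor site was one side of an alternative donor event in 683 of 2726 DCRT-KO introns (25.1%, 23.4 to 26.7), against 5.84% (5.47 to 6.23) of the other introns, and in 497 of 2743 WT introns (18.1%, 16.7 to 19.6), against 4.46% (4.14 to 4.80). The acceptor site was part of an alternative acceptor event in 30.8% (29.1 to 32.6) in DCRT-KO, against 8.56% (8.12 to 9.03), and in 23.4% (21.9 to 25.1) in WT, against 6.86% (6.47 to 7.28). An exon beside the intron was skipped in 28.4% (26.7 to 30.1) in DCRT-KO, against 24.6% (23.9 to 25.3), and in 17.7% (16.3 to 19.2) in WT, against 16.3% (15.7 to 16.9). In WT the last pair of intervals overlaps. The events come from the same isoforms of a library, so the 3 measures are not independent of the retention events. Other introns count with or without a library isoform that covers them, so the chance to be listed in an event was unequal. The part of this in the differences was not tested.

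The bases beside the intron differed less. The exon before the intron ended in AG, the usual end of an exon, in 49.3% (47.4 to 51.2) of inner introns in DCRT-KO, against 55.9% (55.1 to 56.7) of the other introns, and in 49.7% (47.8 to 51.6) in WT, against 55.7% (54.9 to 56.5). It ended in G in 77.0% in DCRT-KO against 80.6%, and in 76.8% in WT against 80.4%. Introns of the coding part that interrupt a codon after its first base (phase 1) made up 32.1% (30.3 to 33.9) in DCRT-KO, against 26.6% (25.8 to 27.3), and 30.4% (28.7 to 32.2) in WT, against 26.5% (25.8 to 27.3). Base composition of the 50 exon bases on either side was close, with a median of 53% GC in DCRT-KO against 50%, and 52% in WT against 50%. Lengths that are a multiple of 3 were about as common, at 33.6% in DCRT-KO against 33.9%, and 33.3% in WT against 33.7%. A microRNA gene lay in 13 introns in DCRT-KO (0.477%, 0.254 to 0.814), against 0.431% (0.332 to 0.550), and in 5 in WT (0.182%, 0.0592 to 0.425), against 0.448% (0.348 to 0.568).

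**Figure D3:**
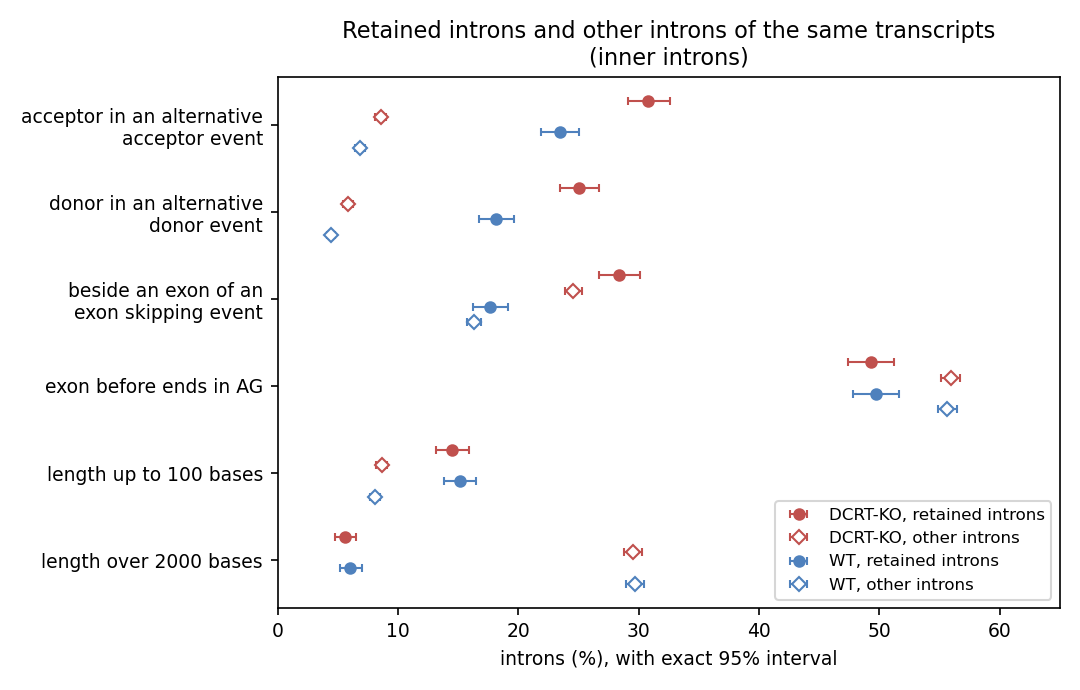
Share of inner introns with each feature, for retained introns with only splicing annotated and for other inner introns of the same transcripts, in DCRT-KO and WT, with exact 95% intervals for counting error. The other introns stood in no retention event of their library. The alternative donor and acceptor shares are 25.1% and 30.8% of DCRT-KO retained introns, against 5.84% and 8.56% of the others. Introns over 2000 bases are rarer among the retained ones. Other introns count with or without a library isoform that covers them.

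Some of the introns could be read as sequence, because another v29 transcript of the gene holds them inside an exon. They were 1066 of 2912 in DCRT-KO (36.6%) and 1027 of 2939 in WT (34.9%). Most of those transcripts are of the type retained intron, 85.3% in DCRT-KO and 84.0% in WT, so this subset leans to introns whose retention is annotated in some other transcript. It also says nothing of the remaining introns, whose sequence was not analysed here. GT and AG ends were found in 98.2% (97.2 to 98.9) in DCRT-KO and 98.5% (97.6 to 99.2) in WT. GC and AG ends were found in 11 and 9 introns, among them HGS intron 17, and AT and AC ends in 5 and 3, among them NOP2 intron 7. AT and AC ends are typical of a small class of introns removed by the minor spliceosome. NOP2, a methyltransferase of ribosomal RNA, kept intron 7 in 3 isoforms and removed it in 26 in DCRT-KO, and the intron was not listed in WT.

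Most introns of this subset held a stop codon in the reading frame of the exon before them. Of those in the coding part it was found in 835 of 970 in DCRT-KO (86.1%, 83.7 to 88.2) and 804 of 931 in WT (86.4%, 84.0 to 88.5). The median first base of the first such codon was base 37 of the intron in both libraries. The share with a stop codon was not computed for other introns, and the part of intron length in it was not tested. Introns that were open and a multiple of 3 long, so that the frame would continue, numbered 48 in DCRT-KO (4.95%) and 36 in WT (3.87%). What became of the RNAs was not measured.

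Introns that hold a snoRNA gene were more common among the retained introns than among the other introns of their transcripts. They were 50 of 2912 in DCRT-KO (1.72%, 1.28 to 2.26), in 27 genes and with 44 snoRNAs, and 30 of 2939 in WT (1.02%, 0.690 to 1.45), in 21 genes and with 28 snoRNAs. These numbers include introns without a named v29 transcript. With those left out, they were 47 of 2867 in DCRT-KO (1.64%, 1.21 to 2.17) and 30 of 2890 in WT (1.04%, 0.701 to 1.48). Of the other introns, all of named v29 transcripts, 72 of the DCRT-KO transcripts (0.402%, 0.315 to 0.506) and 80 of the WT transcripts (0.438%, 0.347 to 0.544) held one. The intervals of the retained and the other introns do not overlap in either library, while those of DCRT-KO and WT do. In both libraries 17 snoRNA introns met the rule. The median length of all retained snoRNA introns was 464 bases in DCRT-KO and 421.5 in WT, against 1062.5 and 1057.5 for the other snoRNA introns.

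Several host genes serve ribosomes and translation. NOP56, a core protein of box C/D snoRNA particles, kept intron 3 with SNORD110 in 7 isoforms in DCRT-KO and 7 in WT, beside 37 and 14 isoforms that removed it. NOP56 intron 8 with SNORD86 was kept in 7 and 3 isoforms. RPL3, a protein of the large ribosomal subunit, kept intron 5 with SNORD83A in 5 isoforms in DCRT-KO and 3 in WT. RPL4, another, kept intron 3 with SNORD16 in 1 and 2 isoforms, and its intron 6 with SNORD18C in 3 isoforms in DCRT-KO while WT did not list it. EIF4A2 kept introns with SNORD2, SNORA81, SNORA63 and SNORA4, and an intron 6 with a small RNA gene that the annotation names RF00092. Those with SNORA63, SNORA4 and RF00092 met the rule in both libraries, and intron 6 was kept by 7 isoforms in DCRT-KO and 2 in WT. SNORD2 lay in a pair of such introns with different 3′ ends, which met the rule in DCRT-KO alone and in WT stood in retention events with no annotated form. Processed pseudogenes of ribosomal protein genes are many, so which gene an isoform that removed the intron came from is uncertain here.

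EIF4A2, an RNA helicase of translation initiation (ENSG00000156976), held the intron with most retained isoforms in DCRT-KO. Its intron 8 of 10, printed above, was kept in 16 isoforms and removed in 49 in DCRT-KO, against 5 and 22 in WT. Further retention events with the same intron, in which no annotated transcript took part, brought these numbers to 22 and 59 in DCRT-KO, against 8 and 25 in WT. Both forms had more isoforms in DCRT-KO. The gene held 9 introns of this kind in DCRT-KO and 7 in WT, 6 of them the same. Retention events of any kind numbered 72 in DCRT-KO and 31 in WT, and the part of these numbers in the difference was not tested.

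Further genes whose introns recurred in both libraries were RHOT2, with 7 shared introns, and ACADVL, AUP1 and PSMD2, with 5 each. RHOT2, a mitochondrial GTPase that ties mitochondria to transport along microtubules, kept intron 10 of 18 in 12 isoforms and removed it in 9 in DCRT-KO, against 19 kept and 12 removed in WT. More isoforms kept than removed it in both libraries, as in 76 of 2527 events with both forms in the DCRT-KO library (3.01%) and 110 of 2556 in the WT library (4.30%). With all retention events of the intron the numbers were 13 and 11 in DCRT-KO, against 25 and 14 in WT. PSMD2, a subunit of the proteasome's regulatory cap, kept intron 4 of 20 in 13 isoforms and removed it in 79 in DCRT-KO, against 6 and 37 in WT. HGS, which sorts ubiquitinated receptors at endosomes, kept intron 17 of 21 in 13 isoforms beside 23 that removed it in DCRT-KO, and in 7 beside 6 in WT. With a further event of the intron they were 15 and 46 in DCRT-KO, against 13 and 31 in WT, so the near balance in WT holds for the first event alone. ACADVL, which starts the oxidation of very long fatty acids in mitochondria, held 6 introns in each library. AUP1, a protein of lipid droplets and of degradation at the endoplasmic reticulum, held 7 in DCRT-KO and 5 in WT.

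PABPC1, the cytoplasmic poly(A)-binding protein, kept its intron 1 in 12 isoforms in DCRT-KO and 4 in WT, and no library isoform was listed that removed it. The intron lies in the 5′ UTR of the annotated transcript that removes it. SGSM3, a regulator of RAB GTPases, kept intron 19 of 21 in 4 isoforms in DCRT-KO beside 4 that removed it, and in 15 beside 13 in WT. ANAPC5, a subunit of the anaphase-promoting complex, kept intron 3 of 16 in 13 isoforms beside 13 in WT, while DCRT-KO did not list the intron. ANAPC5 had 1 event of any type in DCRT-KO and 33 in WT.

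**Figure D4:**
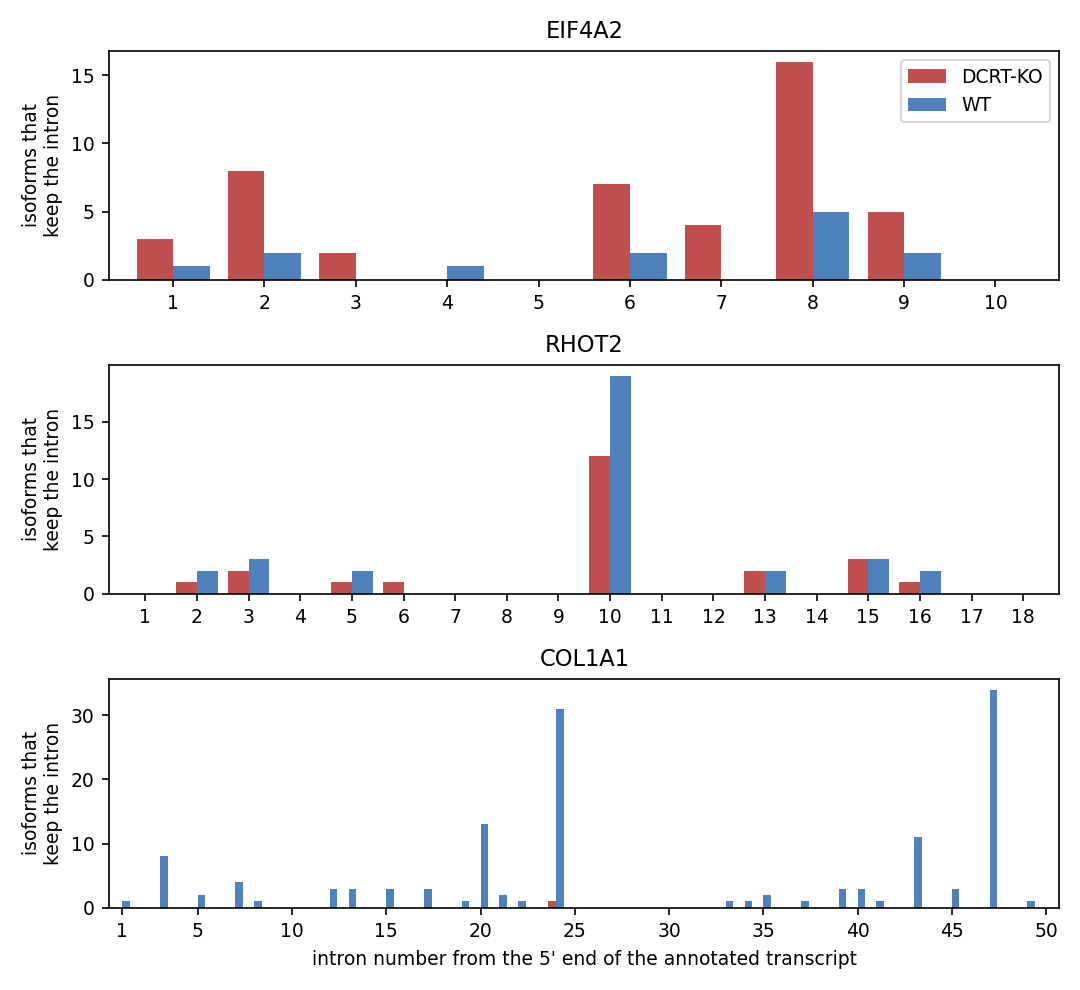
Library isoforms that keep each intron, by intron number from the 5′ end of the annotated transcript, for EIF4A2, RHOT2 and COL1A1 in DCRT-KO and WT; where a number holds several introns with different ends, the bar shows the highest value. RHOT2 has the same leading intron in both libraries, with 12 and 19 isoforms, while for COL1A1 DCRT-KO shows 1 intron with 1 isoform and WT 25 introns.

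By gene too, the libraries were near balance. Of 2541 genes with such an intron, 1053 held more of them in DCRT-KO (41.4% of the genes), 1076 held more in WT (42.3%), and 412 held equal numbers. Most genes held few, with 1 intron in 1007 of 1710 genes in DCRT-KO and 1068 of 1757 in WT, and 5 or more in 53 and 50. Counts of single genes have no error estimate.

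The 5 genes that stood farthest towards DCRT-KO were SNRNP200, PLAU, EIF4G1, DHX30 and ANKRD13D. SNRNP200, the helicase of the U5 particle that unwinds U4 from U6 in the spliceosome, held 8 introns in DCRT-KO and 0 in WT. PLAU, the urokinase plasminogen activator, held 7 and 0. EIF4G1, the scaffold of cap-dependent translation initiation, held 8 and 2. DHX30, an RNA helicase, held 7 and 1, and ANKRD13D, a ubiquitin-binding protein, held 6 and 0. Retention events of any kind numbered 13 in the DCRT-KO library and 1 in the WT library for SNRNP200, 34 and 0 for PLAU and 27 and 9 for EIF4G1. Events of any type numbered 63 in DCRT-KO and 1 in WT for PLAU, and 7 and 0 for ANKRD13D. The part of these numbers in the differences was not tested.

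COL1A1 (ENSG00000108821), which encodes the alpha 1 chain of type I collagen, held 1 intron in DCRT-KO and 25 in WT. The WT introns were kept by 1 to 34 isoforms each, with a median of 3, beside 304 to 711 isoforms that removed them. Intron 47 of 50 was kept in 34 isoforms and removed in 602 in WT and was not listed in DCRT-KO. Intron 24 was kept in 1 isoform and removed in none in DCRT-KO, against 31 and 479 in WT. Of the 25 introns, 24 fall between codons (phase 0), and 3 have a length that is a multiple of 3. These numbers were not compared with the gene's other introns, so they are not a trait particular to the retained ones. DCRT-KO listed 1 event of any type for COL1A1 and WT 405, and the part of the gene's own isoform number in the difference was not tested.

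The other genes farthest towards WT were MYH9, COL1A2, EXOC7 and CPSF1. MYH9, the heavy chain of non-muscle myosin IIA, held 0 introns in DCRT-KO, against 7 in WT, with 7 and 36 retention events of any kind. COL1A2, the partner chain of COL1A1, held 0 and 6, and had 0 events of any type in DCRT-KO and 31 in WT. EXOC7, of the exocyst complex that tethers secretory vesicles, held 0 and 6, with 5 and 15 retention events of any kind. CPSF1, the largest subunit of the factor that recognises the polyadenylation signal, held 2 and 7.

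Gene lists were described by their numbers of these introns, beside the 41.4% and 42.3% of all genes and a median difference of 0 per gene. Genes of the extracellular matrix and fibroblasts held 8 introns in DCRT-KO and 48 in WT. Of the 15 with any, 2 had more in DCRT-KO and 10 had more in WT (66.7%), with a median difference of -1. Without COL1A1 the numbers were 7 and 23. The list's retention events of any kind numbered 70 in DCRT-KO and 385 in WT. Genes of the cytoskeleton and sarcomere held 15 in DCRT-KO and 32 in WT, and 1 of 13 genes had more in DCRT-KO and 10 had more in WT (76.9%), with a median of -1. Besides MYH9, PDLIM7, a PDZ and LIM domain protein of actin filaments, held 3 and 6. Retention events of any kind in this list numbered 291 and 581. The part of these totals in the difference was not tested for either list.

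Lists of translation genes held more in DCRT-KO. Translation factors held 70 introns in DCRT-KO, against 47 in WT, with 19 of 29 genes higher in DCRT-KO (65.5%), 6 higher in WT and a median of 1. EIF4A2 and EIF4G1 are described above. EEF1G, a subunit of the elongation factor that reloads eEF1A, held 4 and 1, and EIF4G2, a relative of EIF4G1 that acts in cap-independent initiation, held 7 and 6. Ribosomal protein genes held 71 introns in DCRT-KO, against 52 in WT, with 25 of 46 higher in DCRT-KO (54.3%), 13 higher in WT and a median of 1. RPS13, of the small subunit, held 4 and 0, RPL4 held 5 and 2, and RPL3 held 6 and 4. Retention events of any kind were also more numerous in DCRT-KO, 456 against 254 for translation factors and 371 against 163 for ribosomal proteins. The part of these totals in the differences was not tested. Counting introns with at least 2 retained isoforms, the difference of 19 introns for ribosomal proteins was 4, and that of 23 for translation factors was 26. Aminoacyl-tRNA synthetases, which charge transfer RNAs, held 29 and 24, with 7 of 15 higher in DCRT-KO, 4 higher in WT and a median of 0. Among them VARS1 held 3 and 1, AARS1 0 and 2, FARSA 4 and 5 and QARS1 4 and 5.

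Splicing factor genes varied by group. Core spliceosome genes held 48 introns in DCRT-KO, against 33 in WT, with 14 of 30 higher in DCRT-KO (46.7%), 9 higher in WT and a median of 0. Retention events of any kind in the list numbered 168 in DCRT-KO, against 121 in WT. Counting introns with at least 2 retained isoforms, the difference of 15 introns was 3. SNRNP200 made up 8 of the DCRT-KO introns. PRPF8, the protein at the heart of the U5 particle, held 3 and 0, and U2AF2, which binds the pyrimidine tract before the acceptor, held 3 and 3. SR proteins and CLK kinases, which promote exon recognition and phosphorylate SR proteins, held 24 and 24, with 4 of 14 higher in DCRT-KO and 6 in WT. SRSF7 held 6 and 3, RSRC2 1 and 4, and SRSF10 the same 3 introns in both. The hnRNP and PTBP list held 38 and 37, with 9 of 19 higher in DCRT-KO and 7 in WT. HNRNPH1, which binds G-rich RNA, held 5 introns in DCRT-KO and 0 in WT, where it had 0 events of any type. HNRNPK, which binds C-rich RNA, held 1 and 5, and HNRNPA1 4 and 4. PTBP1, the splicing repressor that the series title links to DCRT, held 0 of these introns in either library, although it had 8 retention events of other kinds in DCRT-KO and 2 in WT. Genes of the minor spliceosome held 3 and 4 introns, of which SCNM1 held 1 and 2, RNPC3 1 and 0 and CENATAC 1 and 1.

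Metabolic and cell cycle genes held equal or close numbers. Genes of the respiratory chain held 22 introns in DCRT-KO, against 22 in WT, with 7 of 22 genes higher in DCRT-KO and 9 in WT. ATP5F1B, the catalytic subunit of ATP synthase, held 3 and 1, NDUFV1, the subunit of complex I that binds NADH, 3 and 1, and NDUFS8 of complex I 2 and 2. Glycolysis genes held 18 and 22, with 4 of 12 higher on each side. ALDOA, the aldolase, held 0 and 3, PGK1, phosphoglycerate kinase, 0 and 3, GAPDH 1 and 3, and PKM, pyruvate kinase, 4 and 4. Genes of DNA damage and the cell cycle held 36 and 36, with 10 of 23 higher on each side. POLD1, the catalytic subunit of DNA polymerase delta, held 4 and 6, MCM3, of the replicative helicase, 4 and 3, and CCNL1, a cyclin that takes part in splicing, 3 and 1. Dilated cardiomyopathy genes held 3 and 2, all in TPM1, a tropomyosin.

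Marker lists of other cell types held few. Epithelial markers held 8 introns in DCRT-KO and 5 in WT. They were those of KRT18, a keratin, with 4 and 3, LAMB3, a chain of an epithelial laminin, with 4 and 0, and KRT17, another keratin, with 0 and 2. Of 25 epithelial markers, 7 had an event of any type, and these events numbered 84 in DCRT-KO and 26 in WT. Endothelial and smooth muscle markers held 2 and 5, all in SMTN, an actin-binding protein, with 6 of 13 markers having an event of any type and 22 and 89 events. Markers of contracting heart muscle held 0 and 1, in ATP2A2, the calcium pump of the sarcoplasmic reticulum.

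**Figure D5:**
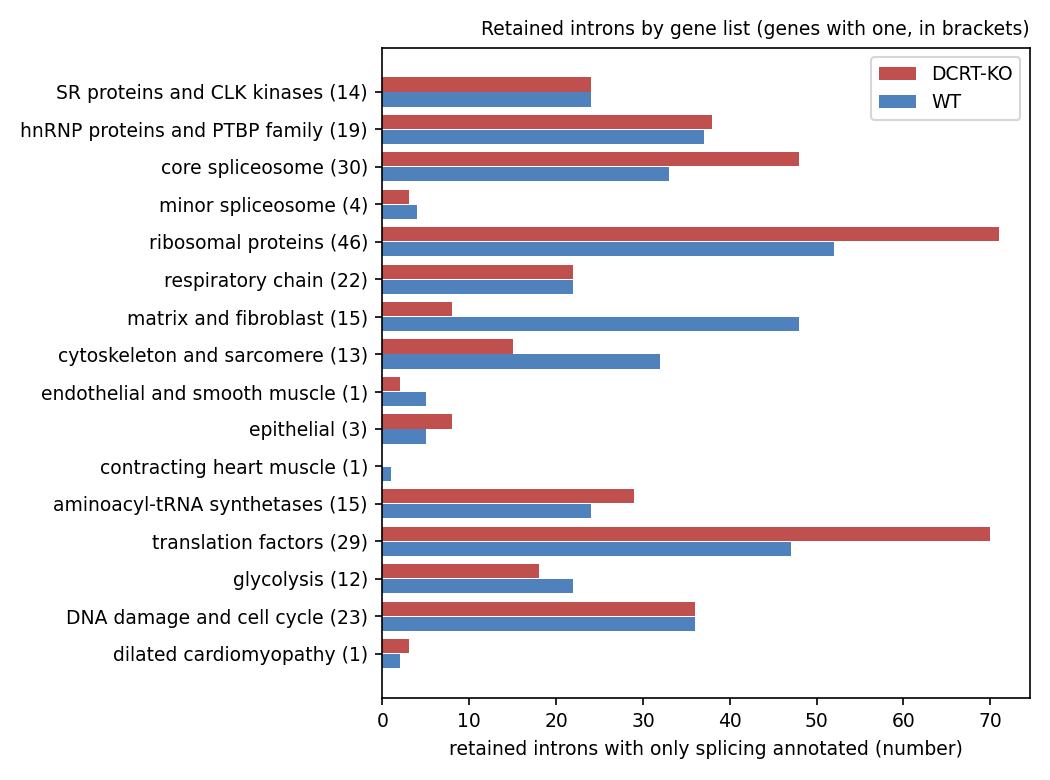
Number of distinct retained introns with only splicing annotated in each gene list, in DCRT-KO (upper bar) and WT (lower bar), with the number of genes that hold any in brackets. The matrix list has 8 and 48, the ribosomal list 71 and 52, and the translation factor list 70 and 47.

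Most library isoforms that kept such an intron kept 1 of them. This held for 3095 of 3649 isoforms in DCRT-KO (84.8%, 83.6 to 86.0) and 3085 of 3642 in WT (84.7%, 83.5 to 85.9), while 75 (2.06%, 1.62 to 2.57) and 95 (2.61%, 2.12 to 3.18) kept 3 or more. The highest number was 4 in DCRT-KO, in 10 isoforms, among them isoforms of NOP2, AUP1, NCL and EIF4G1, with introns that differ only in their ends counted apart. In WT it was 6, in an isoform of COL1A1 that kept introns 3, 5, 7, 13, 15 and 22. Of isoforms with 2 or more of these introns of 1 transcript, 0 of 391 in DCRT-KO and 0 of 402 in WT kept neighbours. Every retention event in the tables has the structure code of a single kept intron, which may leave out neighbours kept together. The count of 0 therefore cannot show that neighbours were never kept together. The shares of isoforms that kept 1 may therefore be too high.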

How the data were processed

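Per the labels, Trizol was used to extract total RNA. The submitters' processing notes name minimap2 and the build hg38. For the programs that built isoforms and called events, their filters and the annotation release, the sources used here give nothing. Per the file headers, the deposited tables hold other content than measured levels, namely the names of isoforms and transcripts, a structure code and splice positions of each event. Each of the 5 event types had its own table in each library. The tables hold no read counts, so intervals cover the counting of introns alone.

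Introns were compared with GENCODE v29 on GRCh38, where 94.2% of the Ensembl transcripts named for these introns in DCRT-KO and 95.0% in WT were found, so another release was used upstream. Of the introns, 45 in DCRT-KO and 49 in WT had no named v29 transcript. All 2541 gene identifiers had a symbol. Events were counted for numbers, overlap with the other library, support and length, and distinct introns for genes, lists and features. Shares have exact (Clopper-Pearson) 95% intervals. Python 3.11.15 and scipy 1.17.1 were used, and the counting was checked on simulated tables.

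The introns, the 16 gene lists and the comparisons were chosen with earlier results of these data known. The comparisons with other introns, snoRNA content, intron ends, stop codons, other events at the same sites and isoforms with several introns were chosen after exploring the tables. An intron in several events has the isoform numbers of the event that met the rule, unless stated. Named genes are PTBP1, the 5 with the largest difference in introns each way, the 5 with most shared introns, the genes of the 5 introns with most retained isoforms per library, and per list the 2 with the largest difference and the 2 with most introns. NOP56, NOP2 and NCL were added after their values were seen.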

Additional observations from a re-analysis of the deposited data

How the results depend on the processing

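Of 227 values under the alternatives, 178 stayed within the counting interval of the main value, within 1.5 times a main count or, for a list's difference, within 50% of it, 45 moved further and 4 changed sign. The alternative of introns of 50 bases or more left out none of these introns, the shortest having 56 bases in DCRT-KO and 66 in WT. Its values, except the share of retention events, were therefore the same by construction, and they count among the 178. The cause of no move was tested. The share of retention events, DCRT-KO minus WT, was 0.181 percentage points, -0.890 with introns of GENCODE v29 only and -0.0154 with genes that have a retention event in both libraries, so it has no stable direction.

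With at least 2 library isoforms on the retained form, 742 events were left in DCRT-KO and 726 in WT. The share listed in the other library was then 35.3% and 36.2%, a value lowered by construction because the minimum also holds there. The median length was 330.5 and 308.0 bases, inner introns made up 96.7% and 97.2%, and 353 genes had more in DCRT-KO against 344 with more in WT. List differences were then 3 for SR proteins and CLK kinases, 5 for hnRNP, 3 for the core and 0 for the minor spliceosome, 4 for ribosomal proteins, 4 for the respiratory chain, -18 for matrix, -7 for cytoskeleton, 0 for endothelial and smooth muscle, 1 for epithelial, 8 for aminoacyl-tRNA synthetases, -7 for glycolysis, -6 for cell cycle and -1 for dilated cardiomyopathy genes, against 1 in the main count.

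With genes that have a retention event in both libraries, the share listed in the other library was 51.4% in DCRT-KO and 53.0% in WT, the median length 370.5 and 362.5 bases, and the share with at least 2 retained isoforms 28.3% and 27.8%. Then 573 genes had more in DCRT-KO against 562 with more in WT, and list differences were 1 for SR proteins, -6 for hnRNP against 1 in the main count, 2 for the respiratory chain, 5 for epithelial and 0 for heart muscle markers. With a library isoform on the spliced form, inner introns made up 97.3% in DCRT-KO and 97.3% in WT, coding introns 96.0% and 96.1%, and list differences were -3 for SR proteins, 4 for hnRNP, 5 for epithelial and 0 for dilated cardiomyopathy genes. Without the 10 genes with most of these introns, the matrix difference was -16. With each event counted, an alternative chosen after seeing the data, the SR protein difference was 1.

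No paired analysis was possible because each genotype has 1 library and no replicate number. The planned share of GT and AG ends over all introns and its alternatives were not run, since no genome sequence was used. Read depth is unknown, so the absence of an intron from a table does not show that it was always removed.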
